A study of Homo sapiens with 8 samples.

Results

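The comparison sets U937 against KG1A, both grown with vehicle only, and describes the genes by which these human leukaemia cell lines differ before any drug. The genes were chosen by level: a gene was kept when it reached 1 CPM or more (CPM are read counts scaled to the size of the library) in at least 2 of the 4 vehicle libraries. This left 15244 of the 57992 genes in the table. The series held 8 RNA-seq libraries, 2 each of KG1A in PBS (the vehicle), KG1A in 10 mM dG, U937 in PBS and U937 in 10 mM dG. In this series dG is deoxyguanosine, a deoxynucleoside. The comparison is between the 4 PBS libraries. The 4 dG libraries were fitted in the same model, so they entered its gene filter and its estimate of the spread, and the line difference was also read in them and compared with that in PBS. All cells grew in the same RPMI medium with dialyzed serum, and the labels name no engineered allele in any group. Each group is 1 established line, so a difference belongs to these lines and cannot be told apart from a difference between their donors. The labels do not say whether the 2 libraries of a group came from separate cultures, and the p-values then measure only the spread between these libraries.

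KG1A is a less mature variant of the acute myeloid leukaemia line KG-1. It keeps surface CD34, the glycoprotein of blood stem and progenitor cells, and carries a fusion of FGFR1OP2 to the receptor FGFR1. U937 came from a histiocytic lymphoma, resembles an early monocyte (a monoblast) and carries a fusion of PICALM to MLLT10. In normal myeloid development CD34 and GATA2 decline while the factors SPI1 (PU.1), CEBPA and IRF8 drive the granulocyte and monocyte programmes. Granule proteases such as ELANE and PRTN3 are made at the promyelocyte stage, and scavenger, Fc and Toll-like receptors appear as cells become monocytes.

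The PBS libraries held 22659210 and 28524002 counts for KG1A and 31135338 and 24404511 counts for U937. A single count was worth 0.0321 to 0.0475 CPM over the 8 libraries. Replicates of a group correlated at 0.9951 to 0.9963 (log2 CPM, across genes). Mitochondrial genes took 9.12% and 9.19% of the counts in KG1A and 9.76% and 9.83% in U937. CPM below are scaled by edgeR's TMM factors and serve to compare 1 gene between lines. RPKM, the authors' deposited reads per kilobase of exon and per scaled library size, serve to compare genes with each other. Log2 differences are U937 minus KG1A, given ± their standard error (SE), and a gene was called when its adjusted p from edgeR's quasi-likelihood test was under 0.05. Where a line had 0 reads in both libraries, the ratio is a lower bound computed from 3 counts over that group. Where it had 1 to 3 reads, any ratio printed has its exact 95% counting interval, and for many such genes the reads alone are given. Both cover counting error only.

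Of the 15244 genes, 6581 were called higher in U937 (43.2%) and 6613 higher in KG1A (43.4%). Over all 18314 genes tested the shares were 41.4% and 40.8%. With the 4 PBS libraries fitted alone, 6649 and 6540 genes were called. At a difference of at least 2-fold there were 3200 genes higher in U937 and 3063 higher in KG1A, against 22.7% and 21.2% of all genes tested. At least 8-fold separated 1495 genes higher in U937 (9.81%) and 1206 higher in KG1A (7.91%), against 11.2% and 8.84% of all tested (20.1% in either direction). The values of the lines did not overlap for 14142 genes (92.8%), against 90.4% of all genes tested. The median difference was 0.00146 on the log2 scale, and the median size of a difference without its sign was 0.77. The level rule shapes these counts: 1390 genes passed through KG1A alone and 1576 through U937 alone, and such genes had to differ. Counts per gene list below are descriptions, to be set beside the shares of all genes kept that were called in each direction. Among the 11900 genes at 1 CPM or more in all 4 libraries, 3252 (27.3%) differed by at least 2-fold and 350 (2.94%) by at least 8-fold. At the edge of the rule, 70 genes whose second highest library lay just above 1 CPM had a median log2 difference of -0.36, and 100 genes just under 1 CPM had a median of 0.41.

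**Figure D1:**
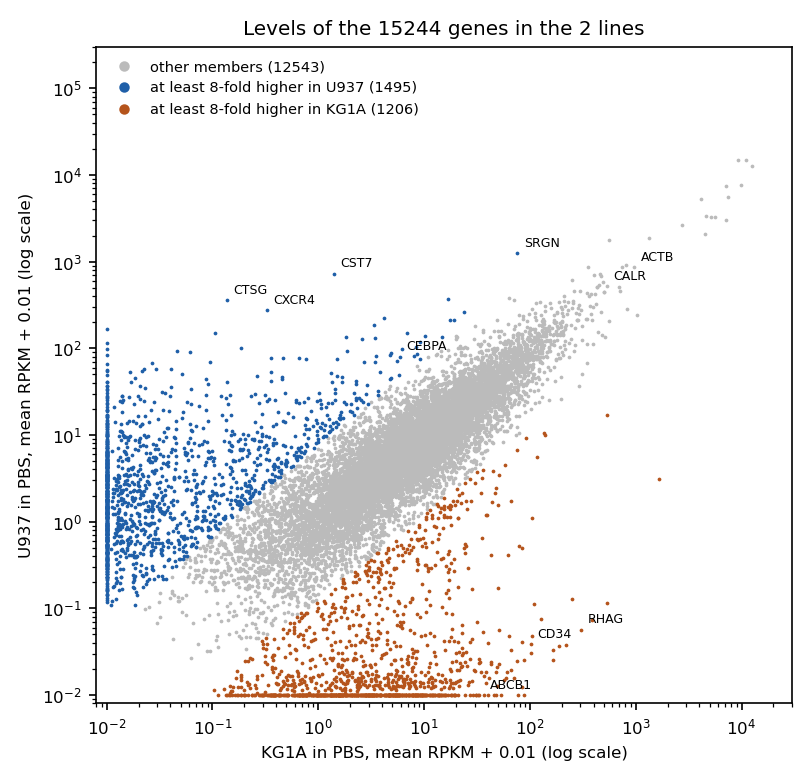
Mean RPKM + 0.01 of each gene in U937 (vertical) against KG1A (horizontal), both on log axes, with each point a gene and the colours marking genes called at least 8-fold apart. The 1495 genes higher in U937 and the 1206 higher in KG1A reach down to 0 in the other line, while ACTB and CALR lie near the diagonal.

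The line difference was also read in the 4 dG libraries, which shared the model with the PBS libraries. In 10 mM dG, 1486 of the 1495 genes at least 8-fold higher in U937 (99.4%) were again called higher in U937, and all 1206 at least 8-fold higher in KG1A were again called higher in KG1A. The background there was high as well. In dG, 39.7% of all genes tested were called higher in U937 and 45.1% higher in KG1A. The share was 84.8% in either direction, and 50.4% at 2-fold or more. For the genes kept, the counts in dG were 6145 higher in U937 and 7242 higher in KG1A. With DESeq2's scaling of library size they were 6603 and 6758, so the size of this imbalance depended on the scaling. Of all genes called in PBS, 81.4% of those higher in U937 and 89.8% of those higher in KG1A were called the same way in dG. The only gene at least 8-fold apart in PBS and called the opposite way in dG was RYR2, a calcium release channel. Its level in KG1A was 3.25 and 2.60 CPM in PBS and 13.1 and 12.9 CPM in dG, and in U937 it was 29.7 and 26.1 CPM in PBS and 12.1 and 10.1 CPM in dG. The change in its line difference was -3.50 ± 0.16 (adjusted p = 9.94e-20, edgeR's quasi-likelihood test). RYR2 was singled out after its values were seen.

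Stem and progenitor genes were mostly higher in KG1A. Of the 27 listed genes that met the level rule (35 listed), 18 were higher in KG1A, 14 of them by at least 8-fold, 8 were higher in U937, and LYL1, a transcription factor of early blood cells, was not called. Their median log2 difference was -3.28, against 0.00146 for all genes kept. For the 9 of them at 1 CPM or more in all 4 libraries the median was -0.35. CD34 (ENSG00000174059, chr1:207880972-207911402, minus strand, GRCh38) had 932 and 931 CPM in KG1A and 0.251 and 0.279 CPM in U937, a difference of -11.76 ± 0.08 (adjusted p = 9.94e-47, edgeR's quasi-likelihood test). Both KG1A libraries were thus far above both U937 libraries. GATA2, a zinc finger factor needed by stem cells, was at 114.5 and 112.7 CPM in KG1A and 1.22 and 1.32 CPM in U937. ERG, an ETS factor of stem cells, was at 125 and 117 CPM in KG1A and had 2 reads in U937, a ratio of 3420 (counting interval 948 to 28300). ANGPT1, the ligand of the TEK receptor, was at 264 and 257 CPM in KG1A and had 3 reads in U937. HOPX, a homeodomain protein of quiescent stem cells, was at 224 and 229 CPM in KG1A and at 0.0314 and 0.12 CPM in U937. BAALC, a gene of early progenitors, was at 141 and 142 CPM in KG1A against 0.157 and 0.199 CPM in U937.

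The stem cell picture was not uniform. PROM1, which encodes the progenitor antigen CD133, was low in both lines, with 0.607 and 0.684 CPM in KG1A and 0.220 and 0.199 CPM in U937, and it fell outside the level rule. KIT, the stem cell factor receptor, was at 1.08 and 0.958 CPM in KG1A and 0.251 and 0.279 CPM in U937. FLT3 had too few reads to be tested in either line. MECOM, a stem cell factor, had 0 reads in KG1A. MEIS1, a HOX partner of leukaemic stem cells, went the other way: it had 0 reads in KG1A and 154 and 153 CPM in U937, at least 2680-fold higher. MYB, a proliferation factor of progenitors, was at 356 and 346 CPM in KG1A and 642 and 625 CPM in U937 (0.85 on the log2 scale). ITGA6, a laminin receptor used to sort stem cells, was at 99.8 and 95.4 CPM in KG1A and 365 and 352 CPM in U937. CD38, which is low on immature cells, was at 11.4 and 10.5 CPM in KG1A and 41.4 and 37.2 CPM in U937.

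The genes of the LSC17 score, a published set weighted by leukaemic stem cell content, followed the same side. Of the 16 that met the level rule, 14 were higher in KG1A and 2 in U937, with a median log2 difference of -5.85, or -4.73 with genes at 0 reads set to their bound. For the 6 at 1 CPM or more in all 4 libraries the median was -1.74. The score's genes were counted here without their published weights. LAPTM4B, a lysosomal membrane protein, was at 678 and 691 CPM in KG1A and 0.0628 and 0.12 CPM in U937. MMRN1, a platelet and endothelial matrix protein, was at 331 CPM in both KG1A libraries and had 3 reads in U937. CDK6, a G1 kinase, was at 1565 and 1379.9 CPM in KG1A and 320 and 276 CPM in U937. DPYSL3, a cytoskeletal regulator, and ZBTB46, a dendritic cell factor, were the 2 higher in U937, and the call of ZBTB46 ended without U937 PBS replicate 1 (adjusted p = 0.217). BEX3, also in the score, was listed at 0 in every library.

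**Figure D2:**
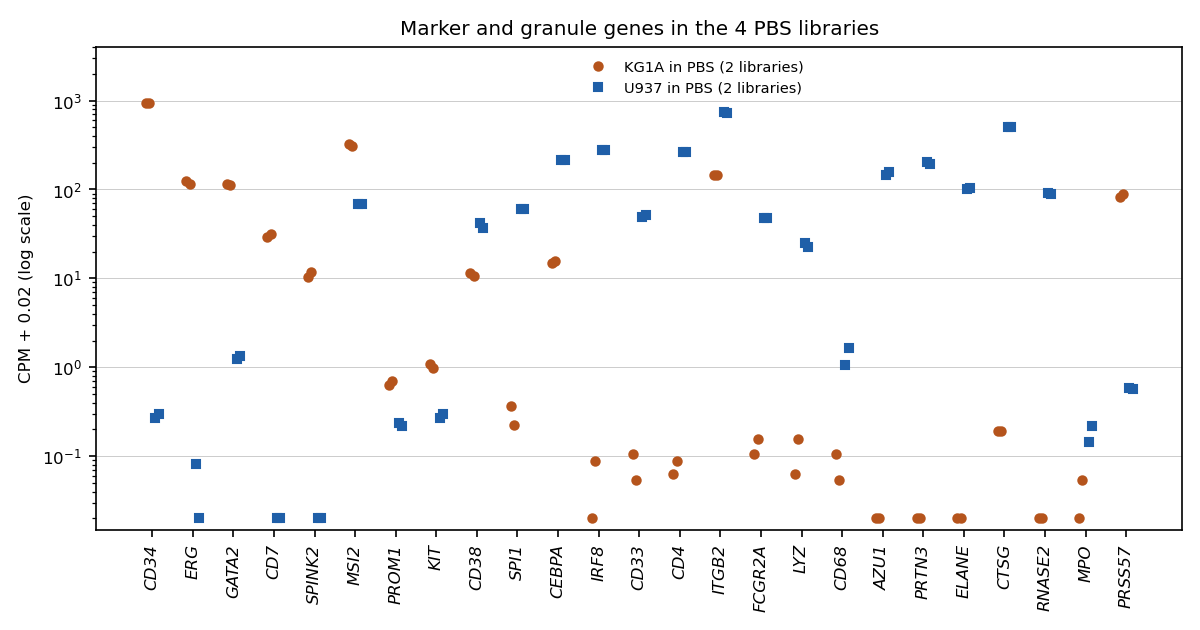
CPM + 0.02 on a log axis for 25 marker and granule genes, with circles for the 2 KG1A libraries and squares for the 2 U937 libraries in PBS. CD34, ERG and GATA2 are high in KG1A, the granule genes except PRSS57 and MPO are high in U937, and MPO, PROM1, KIT and CD68 are low in both lines relative to the others.

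Genes of the primary granules, the protease-laden vesicles of promyelocytes, were higher in U937. Of 14 genes kept, 12 were higher in U937, 11 of them by at least 8-fold, 1 was higher in KG1A and CALR, a chaperone, was not called. The median log2 difference was 8.49, and 3.23 for the 4 at 1 CPM or more in all 4 libraries. CTSG, which encodes the protease cathepsin G, was at 0.173 and 0.171 CPM in KG1A and 498.9 and 498.8 CPM in U937, a difference of 11.46 ± 0.09. PRTN3 (proteinase 3) had 0 reads in KG1A and 203 and 191 CPM in U937, at least 3450-fold higher. AZU1 (azurocidin) had 0 reads in KG1A and 146 and 158 CPM in U937, at least 2640-fold higher. ELANE (neutrophil elastase) had 0 reads in KG1A and 101 and 104 CPM in U937, at least 1780-fold higher. SRGN, the proteoglycan that packs granule proteins, was the gene of highest RPKM among those at least 8-fold higher in U937, with means of 76.2 RPKM in KG1A and 1254 RPKM in U937. CST7, an inhibitor of cathepsin activation, followed with 1.38 RPKM in KG1A and 728.9 RPKM in U937. PRSS57, also a granule serine protease, was opposite, at 81.4 and 89.2 CPM in KG1A and 0.565 and 0.558 CPM in U937. MPO, myeloperoxidase, the usual mark of this stage, had 1 read in KG1A and 9 reads in U937 and was not tested. Late neutrophil genes were mostly below the level rule: 6 of 18 met it, and of these only CSF3R, the G-CSF receptor, was at 1 CPM or more in all 4 libraries. CSF3R was at 13.8 and 15.7 CPM in KG1A and 76.4 and 79.1 CPM in U937. The other 5 met the rule through U937 alone, among them CEBPE at 11.3 and 11.8 CPM with 0 reads in KG1A.

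The promoters of the granule genes are shown because PRTN3 and AZU1 lie side by side on chromosome 19 and differed together with ELANE, and that of CD34 is shown as the gene that marks the other line. ELANE had no entry in the promoter table. Each run is the 250 bases before the RefSeq start of the gene (GRCh38.p14), and capitals mark matches to GAGGAA (a core bound by ETS factors such as SPI1) or TTNNGCAA (a C/EBP type site), searched on both strands. The RefSeq start of AZU1 lies 2740 bases from the gene start in the count table, so its window belongs to the RefSeq transcript. The RefSeq start of CD34 lies 277 bases inside the gene as counted. The CD34 window therefore falls within the counted gene and not upstream of it. For PRTN3 and CTSG the distance was 39 and 10 bases.
PRTN3, chr19:840749-840998, plus strand: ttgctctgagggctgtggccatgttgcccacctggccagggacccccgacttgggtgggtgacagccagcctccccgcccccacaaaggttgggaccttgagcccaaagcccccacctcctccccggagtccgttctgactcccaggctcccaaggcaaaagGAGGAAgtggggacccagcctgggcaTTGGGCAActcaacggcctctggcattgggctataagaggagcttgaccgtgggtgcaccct
AZU1, chr19:827587-827836, plus strand: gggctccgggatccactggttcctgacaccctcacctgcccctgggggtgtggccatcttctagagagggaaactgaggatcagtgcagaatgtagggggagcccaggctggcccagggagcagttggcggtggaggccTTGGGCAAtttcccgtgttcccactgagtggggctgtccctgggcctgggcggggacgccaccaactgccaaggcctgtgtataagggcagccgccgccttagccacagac
CTSG, chr14:24576251-24576500, minus strand: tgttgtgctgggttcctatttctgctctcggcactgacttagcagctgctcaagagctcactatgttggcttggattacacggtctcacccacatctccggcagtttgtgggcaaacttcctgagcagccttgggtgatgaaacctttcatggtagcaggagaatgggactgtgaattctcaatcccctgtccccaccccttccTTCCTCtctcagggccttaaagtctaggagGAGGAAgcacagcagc
CD34, chr1:207911126-207911375, minus strand: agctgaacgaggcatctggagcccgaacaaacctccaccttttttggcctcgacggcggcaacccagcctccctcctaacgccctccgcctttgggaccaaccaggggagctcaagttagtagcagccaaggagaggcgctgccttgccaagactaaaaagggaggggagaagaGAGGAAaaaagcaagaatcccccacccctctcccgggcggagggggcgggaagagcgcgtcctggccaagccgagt
PRTN3 had GAGGAA starting 88 bases and TTNNGCAA starting 62 bases before the start. AZU1 had TTNNGCAA at 111 bases. CTSG had GAGGAA at 46 bases on the minus strand of the window and at 16 bases on the plus strand. CD34 had GAGGAA at 76 bases. These letters are common: 23.4% of the 27305 promoter windows in the RefSeq table hold GAGGAA and 9.13% hold TTNNGCAA. A match is thus a description and not a bound site. The motifs AGATAA and TGTGGT were searched as well and had no match in the windows shown. Of other windows searched, that of ITGA2B had 0 matches, and that of ABCB1 had GAGGAA and AGATAA. No comparison of promoter classes is given, because only 944 of the 1268 protein-coding genes at least 8-fold higher in U937 and 722 of the 925 higher in KG1A had an entry, fewer than 80% of each.

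Of 30 myeloid transcription factors kept, 22 were higher in U937, 6 were higher in KG1A and 2 were not called. Their median log2 difference was 1.25, and 0.68 for the 20 at 1 CPM or more in all 4 libraries. SPI1 (ENSG00000066336, chr11:47354860-47378576, minus strand), the PU.1 factor of monocytes and granulocytes, was at 0.347 and 0.205 CPM in KG1A and 60.4 CPM in both U937 libraries, a difference of 7.79 ± 0.14. CEBPA, which drives granulocyte commitment, was at 14.7 and 15.8 CPM in KG1A and 216 and 214 CPM in U937 (3.81 ± 0.05). IRF8, a monocyte and dendritic cell factor, had 2 reads in KG1A and 278 and 277 CPM in U937, a ratio of 7260 (counting interval 2010 to 60000). PPARG, a nuclear receptor of macrophages, had 0 reads in KG1A and 32.0 and 31.9 CPM in U937. GFI1, a transcriptional repressor acting in granulocyte development, was at 29.95 and 29.5 CPM in KG1A and 248 and 251 CPM in U937. Its paralogue GFI1B, of erythroid and megakaryocytic cells, was at 107 and 111 CPM in KG1A and 0.0941 and 0.0797 CPM in U937. The paralogues were thus ordered oppositely in the lines. RUNX1, a core blood factor, was at 289.8 and 268 CPM in KG1A and 98.7 and 95.2 CPM in U937 (-1.52 ± 0.04).

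Monocyte and macrophage markers split by gene. Of 25 kept (35 listed), 20 were higher in U937 and 5 in KG1A, with a median of 6.54, or 5.64 with genes at 0 reads set to their bound. Only 4 of the 25 reached 1 CPM in all 4 libraries, with a median of -0.28. CD4, present on monocytes as well as T cells, had 3 reads in KG1A and 266 and 265 CPM in U937. CPVL, a carboxypeptidase of macrophages, had 0 reads in KG1A and 140 and 135 CPM in U937, at least 2400-fold higher. CD33, a sialic acid binding receptor of myeloid cells, had 3 reads in KG1A and 49.1 and 51.9 CPM in U937, a ratio of 878 (counting interval 300 to 4260). LYZ, lysozyme, was at 0.0433 and 0.137 CPM in KG1A and 24.7 and 22.7 CPM in U937. Several defining markers of mature cells were low in U937 too. CD14 was at 0.0628 and 0.0399 CPM, CD68 at 1.04 and 1.63 CPM, FCGR1A at 1.35 and 1.32 CPM, and CD163 had 0 reads. The 5 higher in KG1A included MSR1, a scavenger receptor, with 14.1 and 14.6 CPM in KG1A against 3 reads in U937.

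The sialic acid binding lectins, leukocyte immunoglobulin-like receptors and related paired receptors, which recognise self ligands, were low in KG1A. The 18 kept (24 listed) were each called at least 8-fold higher in U937, but only 1 of them was at 1 CPM or more in all 4 libraries, so the level rule itself fixed the direction of most. Their summed level was 9.93 and 10.1 CPM in the KG1A libraries and 743 and 740.0 CPM in U937. SIRPA, the receptor for CD47, had 2 reads in KG1A and 237 and 229 CPM in U937. SIGLEC6 was at 0.824 and 0.924 CPM in KG1A and 108 and 109 CPM in U937. LILRA2 had 0 reads in KG1A and 38.2 and 39.5 CPM in U937, at least 676-fold higher. The ligand gene CD47 was high in both lines, at 269 and 258 CPM in KG1A and 229 and 230.3 CPM in U937.

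Sensors of microbes were present in both lines with different members. Of 26 innate sensor, Fc and complement receptor genes kept, 16 were higher in U937 and 10 in KG1A. TLR4, the receptor of lipopolysaccharide, had 1 read in KG1A and 60.5 and 56.6 CPM in U937. Its partner LY96 was opposite, at 6.11 and 5.4 CPM in KG1A and 0.220 and 0 CPM in U937. TLR1 and TLR6, partners of TLR2, were higher in KG1A as well: TLR1 was at 14.9 and 13.6 CPM there and 0.0941 and 0.12 CPM in U937. TLR2 itself had 0 reads in KG1A and 14.8 and 13.8 CPM in U937. PYCARD, the inflammasome adaptor, had 1 read in KG1A and 26.5 and 28.6 CPM in U937, whereas CASP1, the protease it recruits, was at 68.9 and 64.2 CPM in KG1A and 13.9 and 14.6 CPM in U937. Of the 6 phagocyte oxidase genes, the cytosolic subunits NCF1 and NCF4 were higher in U937, with NCF4 at 0 reads in KG1A and 111 and 122 CPM in U937. CYBB, the catalytic subunit, was low in both, at 3.68 and 4.52 CPM in KG1A and 3.17 and 3.11 CPM in U937, and its call was lost without KG1A replicate 2 (adjusted p = 0.303), U937 replicate 1 (0.0622) or U937 replicate 2 (0.0833).

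Genes of MHC class II, which presents antigen to T cells, were mostly near 0 in KG1A. Of 11 kept, 10 were higher in U937, 0 were higher in KG1A, and RFXANK, a general promoter factor, was not called. Only 3 of the 11 were at 1 CPM or more in all 4 libraries, with a median log2 difference of 0.13. HLA-DPA1, HLA-DPB1, HLA-DQA1 and HLA-DQB1 were under 1 CPM in every library and were not kept. HLA-DRA, the alpha chain of HLA-DR, was at 0.173 and 0.0684 CPM in KG1A and 198 and 197 CPM in U937 (10.69 ± 0.12). CD74, the chaperone of class II molecules, had 3 reads in KG1A and 187 and 184 CPM in U937. CIITA, the master regulator of these genes, was at 0.0867 and 0.137 CPM in KG1A and 63.0 and 62.6 CPM in U937. The promoter factor RFX5 was at 98.0 and 95.5 CPM in KG1A and 105 and 107 CPM in U937. The 16 class I presentation genes kept were at 1 CPM or more in all 4 libraries, and 9 were higher in U937 and 5 in KG1A. PSMB10, an immunoproteasome subunit, was low in both lines, at 2.64 and 3.39 CPM in KG1A and 5.81 and 5.70 CPM in U937. HLA-B was at 134 and 135 CPM in KG1A and 484 and 488 CPM in U937. Reads of HLA genes can be shared between near-identical copies, so their values are uncertain.

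Lymphoid genes were present in KG1A and in U937 with different members. Of 19 kept, 11 were higher in KG1A, 10 of them by at least 8-fold, and 8 were higher in U937. The median log2 difference was -3.88, and 0.41 for the 4 at 1 CPM or more in all 4 libraries. CD7, a T cell and progenitor antigen, was at 29.5 and 31.8 CPM in KG1A with 0 reads in U937, at least 585-fold higher. CD3D, a T cell receptor chain, was at 94.0 and 95.9 CPM in KG1A with 2 reads in U937. IGHM, the heavy chain of IgM, was at 344 and 355 CPM in KG1A and had 3 reads in U937 (counted as part of a run described below). PRF1 (perforin), a protein of cytotoxic cells, was at 23.3 and 22.1 CPM in KG1A with 0 reads in U937, whereas NKG7, of the same cells, was at 18.9 and 18.1 CPM in KG1A and 124 and 121 CPM in U937. Other markers of mature lymphocytes were near 0 in KG1A: CD5 and MS4A1 had 0 reads, and CD8A reached at most 0.137 CPM. PAX5, a B cell factor, was at 14.1 and 14.9 CPM in U937 and 5.94 and 4.82 CPM in KG1A. Of 8 T cell receptor segments, 7 were higher in KG1A and TRAC, the alpha chain constant segment, was higher in U937. That family was chosen after its values were seen.

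Erythroid and megakaryocyte markers were mostly below the level rule, with 7 of 30 kept. Of these, 5 were higher in KG1A and 2, KLF1 and EPOR, were higher in U937. KLF1 had 1 read in KG1A and 2.17 and 2.19 CPM in U937. EPOR was at 2.38 and 1.68 CPM in KG1A and 8.44 and 8.37 CPM in U937. ITGA2B, the platelet integrin chain CD41, was at 270.4 and 268 CPM in KG1A with 1 read in U937, a ratio of 15300 (counting interval 2750 to 605000). Its partner ITGB3 was at 2.56 and 2.26 CPM in KG1A with 0 reads in U937, and the erythroid factor GATA1 had at most 0.103 CPM in either line. Haemoglobin genes HBA1, HBA2 and HBB had 0 reads in all 4 libraries. TFRC, the transferrin receptor, was at 1025 and 1005 CPM in KG1A and 219.8 and 219 CPM in U937. RHAG, a red cell ammonium channel, was among the genes of highest RPKM in KG1A, at 306.3 RPKM in KG1A and 0.0469 RPKM in U937. For mast cells, TPSAB1 (a tryptase) had 0 reads in KG1A and 87.4 and 87.5 CPM in U937, while CPA3 (a carboxypeptidase) was at 42.8 and 40.8 CPM in KG1A with 2 reads in U937. Fibroblast, endothelial and epithelial markers were mostly below the level rule: 4 of 22 met the rule and EPCAM, KRT5, LUM and CDH5 had 0 reads in all 4 libraries. The 4 kept were each called at least 8-fold apart, 2 higher in U937 and 2 in KG1A. COL1A1 had 74 reads in U937 and 0 in KG1A, and COL3A1 had 218 reads in KG1A and 0 in U937. The summed level of the list was 60.0 and 60.9 CPM in KG1A and 6.62 and 7.45 CPM in U937.

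**Figure D3:**
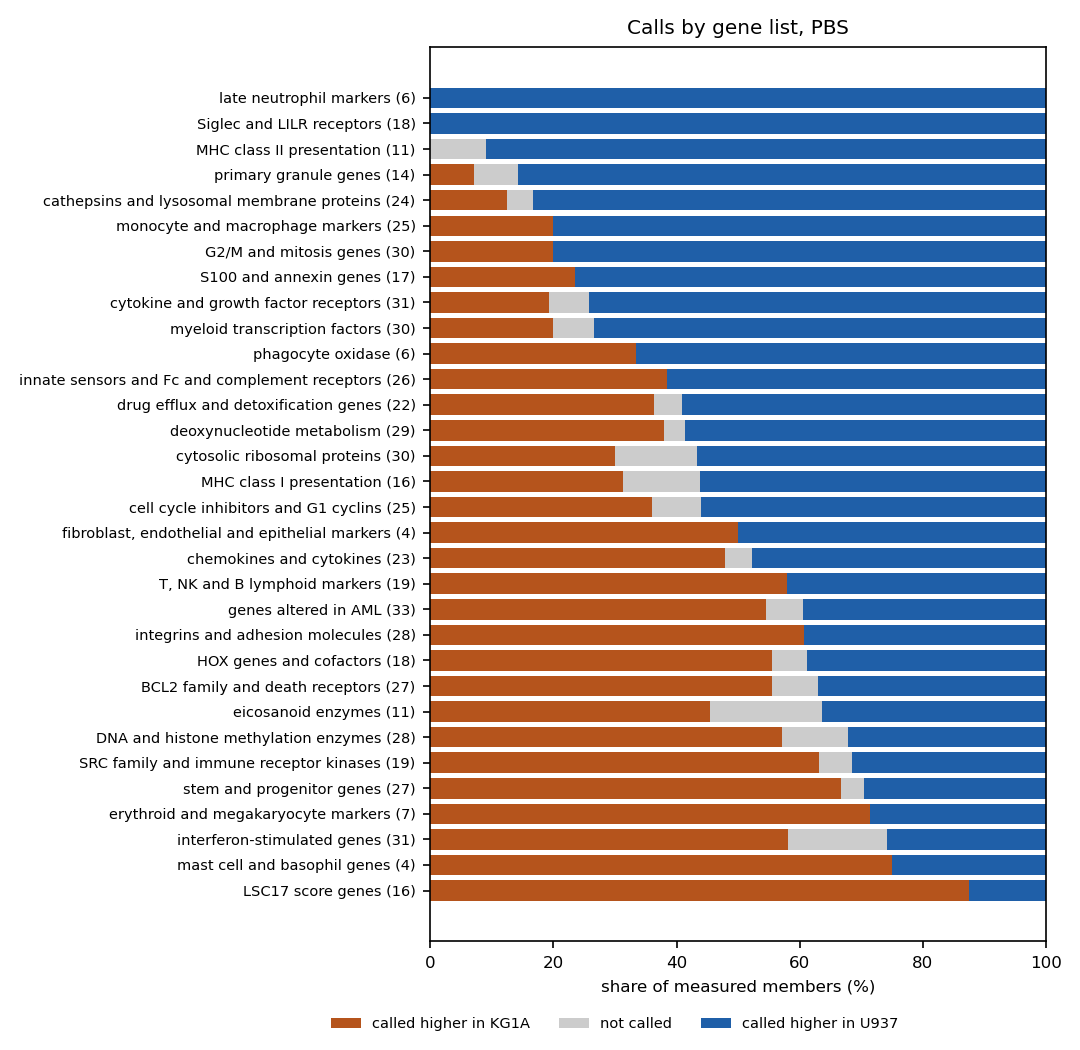
For each gene list, the share (%) of its measured genes called higher in KG1A, not called, or called higher in U937, with the number of measured genes in brackets. The late neutrophil and sialic acid binding lists are all called higher in U937, with 1 gene of each at 1 CPM or more in all 4 libraries, and the LSC17 list is the one with the largest share higher in KG1A.

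The genes with the largest differences were named by rule from protein-coding genes at 20 CPM or more in the higher line. Genes at 0 reads were ranked by their lower bound and genes at 1 or more reads by their fitted difference, so PRTN3, MEIS1 and ABCB1, at 0 reads, fell outside while genes at 1 read with fewer counts in the higher line entered. In U937 they were GRB10, USP22, TFEB, SLC26A9, IRF8, GAS7, SIRPA, COL4A2, HOXA13, CD37, CD4 and SETD7. GRB10, an adaptor of the insulin receptor, had 1 read in KG1A and 213.7 and 214.2 CPM in U937, a ratio of 11200 (counting interval 2010 to 442000). TFEB, a regulator of lysosome genes, had 1 read in KG1A and 160.7 and 163.6 CPM in U937. In KG1A they were APP, ITGA2B, HGF, TOX, BANK1, BLMH, EPB41L2, NRIP1, LAPTM4B, HMGN3, CYP1B1 and RHAG. APP, the amyloid precursor protein, was at 524 and 526 CPM in KG1A with 1 read in U937, a ratio of 29900 (counting interval 5360 to 1180000). HGF, hepatocyte growth factor, was at 622 and 605 CPM in KG1A with 3 reads in U937. NRIP1, a nuclear receptor corepressor, was at 410.2 and 389 CPM in KG1A with 0 reads in U937, at least 7560-fold higher. Few reads of such genes appeared in the other line: of 2362 genes at 100 CPM or more in U937, 35 were under 0.1% of that level in KG1A, 12 of these at 0 reads, and of 2451 genes at 100 CPM or more in KG1A, 76 were under 0.1% in U937, 11 of these at 0 reads.

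Genes of high level per length gave a related picture. Besides SRGN and CST7, the U937 genes at least 8-fold higher with the highest RPKM were PLEK, CTSG, CXCR4, CTSD and BCL2A1 and the transcript RP11-3J10.7. CXCR4, the receptor for the marrow chemokine CXCL12, was at 0.319 RPKM in KG1A and 277 RPKM in U937. In KG1A the list was ITM2A, RHAG, TSPAN13, LAPTM4B, IGHM, RP11-301G19.1 and the nuclear copies of mitochondrial genes MTND1P23 and MTCO1P12, whose reads can be shared with the mitochondrial genome and are uncertain. ITM2A, a membrane protein of early blood and T cells, was at 533.8 RPKM in KG1A and 0.104 RPKM in U937. A gene was taken as of similar level when its whole 95% interval lay within -0.25 to 0.25 on the log2 scale. This held for 1186 genes (7.78%), called or not. Those of highest RPKM were MT-CO3, MT-CO1, MT-ND5, ACTB, CALR and TPT1P9. MT-ND5, a subunit of respiratory complex I, differed by 0.01 ± 0.03. ACTB, cytoplasmic actin, differed by -0.11 ± 0.03 and was still called (adjusted p = 3.32e-04).

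The HOX genes, homeobox factors that pattern the body axis and are kept on in many leukaemias, were split within the A cluster. HOXA2 to HOXA9 were higher in KG1A, and HOXA10, HOXA11 and HOXA13 were higher in U937. HOXA7 was at 56.8 and 63.6 CPM in KG1A and 3.33 and 3.55 CPM in U937. HOXA9, the cluster gene most studied in leukaemia, was at 224 and 223 CPM in KG1A and 127 and 130 CPM in U937 (-0.80 on the log2 scale). HOXA10 was at 70.3 and 68.5 CPM in KG1A and 162 and 168 CPM in U937. HOXA11 was at 1.86 and 2.50 CPM in KG1A and 58.0 and 57.7 CPM in U937. HOXA13, at the end of the cluster (chr7:27193503-27200106), had 2 reads in KG1A and 215 and 207 CPM in U937, a ratio of 5520 (counting interval 1530 to 45600). The partner genes differed as well: MEIS1 had 0 reads in KG1A, and MEIS2 was at 106 and 110.2 CPM in KG1A and 0.0314 and 0.12 CPM in U937. Among 18 HOX genes and cofactors kept, 10 were higher in KG1A, 7 in U937 and 1 was not called. Strand setting was not given in the sources used here, and the antisense genes of the cluster overlap these genes, so reads of a gene and its antisense partner cannot be told apart.

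**Figure D4:**
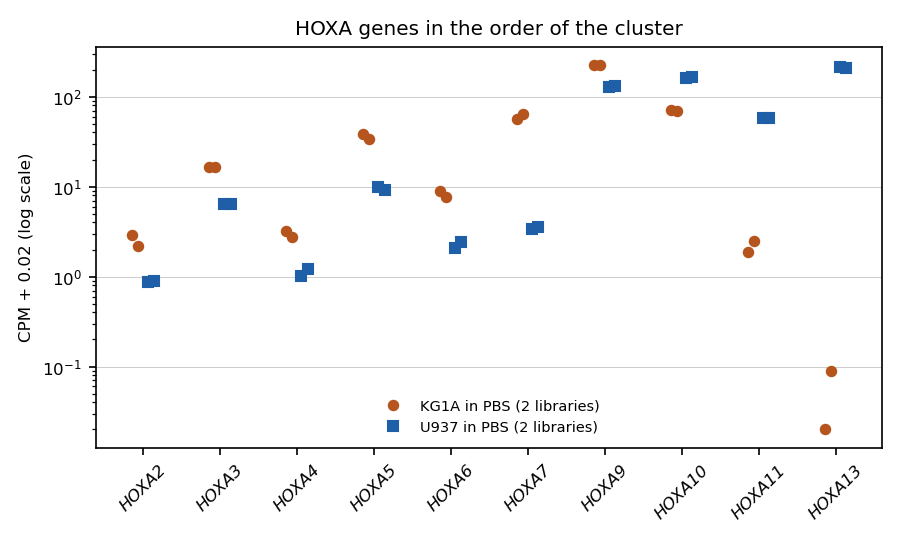
CPM + 0.02 on a log axis for 10 HOXA genes in the order of the cluster, with circles for the 2 KG1A libraries and squares for the 2 U937 libraries in PBS. HOXA2 to HOXA9 lie higher in KG1A, and HOXA10 to HOXA13 lie higher in U937.

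Of 28 adhesion molecules kept, 17 were higher in KG1A and 11 in U937, beside 43.4% and 43.2% of all genes kept. Their median log2 difference was -1.07, and -0.29 for the 18 at 1 CPM or more in all 4 libraries. ITGAL, the alpha chain of LFA-1, was at 415 and 406 CPM in KG1A and 80.8 and 79.9 CPM in U937, whereas its beta chain ITGB2 was at 146 and 147 CPM in KG1A and 738 and 725 CPM in U937. ITGAM and ITGAX, the chains of the complement receptors, were low in KG1A, at 1.65 and 1.61 CPM and 0.433 and 0.547 CPM, and higher in U937, at 13.7 and 14.2 CPM and 6.81 and 7.53 CPM. CD44, the hyaluronan receptor, was at 613 and 616 CPM in KG1A and 154 and 159.5 CPM in U937.

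Cytokine and growth factor receptors were mostly higher in U937, with 23 of 31 kept, and 6 higher in KG1A. CSF2RB, the common beta chain of the GM-CSF, IL-3 and IL-5 receptors, had 0 reads in KG1A and 20.6 CPM in both U937 libraries, at least 359-fold higher. IGF1R, the insulin-like growth factor receptor, was at 3.08 and 3.22 CPM in KG1A and 126 and 121 CPM in U937. FGFR1, which is fused in KG1A, was at 109.9 and 115 CPM in KG1A and 11.7 and 11.9 CPM in U937 (-3.25 on the log2 scale). These counts cannot tell the fusion from the whole gene. FLT1, a VEGF receptor, was at 67.5 and 66.0 CPM in KG1A and 0.157 and 0.0797 CPM in U937, while its ligand VEGFA was at 10.5 and 10.9 CPM in KG1A and 171 and 172 CPM in U937. Of 19 kinases of the SRC family and of immune receptors kept, 12 were higher in KG1A and 6 in U937, beside 43.4% and 43.2% of all genes kept. BTK, the B cell and myeloid kinase, was at 0.347 and 0.342 CPM in KG1A and 203 and 208 CPM in U937, and ZAP70, the T cell kinase, was at 53 and 52.9 CPM in KG1A and 0.0941 and 0.199 CPM in U937. LYN was at 476 and 470 CPM in KG1A and 143 and 141 CPM in U937.

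Interferon-stimulated genes were mostly higher in KG1A. Of 31 kept, 18 were higher in KG1A, 8 in U937 and 5 were not called, with a median of -1.27. For the 19 at 1 CPM or more in all 4 libraries the median was -0.10. RSAD2, an antiviral enzyme, was at 406 and 403 CPM in KG1A and 2.17 and 2.63 CPM in U937. MX2, an antiviral GTPase, was opposite, at 0.217 and 0.171 CPM in KG1A and 187 and 184 CPM in U937. Lysosomal genes were mostly higher in U937, with 20 of 24 kept and 3 higher in KG1A. CTSD, an aspartic protease, was at 72.3 and 73.1 CPM in KG1A and 857 and 827 CPM in U937, and CTSB, a cysteine protease, was at 57.3 and 60.4 CPM in KG1A and 620.6 and 616 CPM in U937. CTSC, which activates granule proteases, was opposite, at 1351 and 1349 CPM in KG1A and 380.0 and 379.8 CPM in U937. S100 and annexin genes were higher in U937 for 13 of 17 kept and higher in KG1A for 4, among them ANXA1, at 419.5 and 413 CPM in KG1A and 43.1 and 41.3 CPM in U937. Of 23 chemokine and cytokine genes kept, 11 were higher in each line. CCL5, which draws T cells and monocytes, was at 0.477 and 0.547 CPM in KG1A and 83.3 and 81.6 CPM in U937, and IL1B, an inflammatory cytokine, was at 43.8 and 44.9 CPM in KG1A and 1.00 and 1.24 CPM in U937. Of 11 eicosanoid genes kept, 5 were higher in KG1A and 4 in U937. HPGDS, a prostaglandin D synthase, was at 138 CPM in both KG1A libraries with 1 read in U937, and PTGS1 (cyclooxygenase 1) was at 12.6 and 13 CPM in KG1A and 150.1 and 144 CPM in U937.

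Genes of deoxynucleotide metabolism bear on the drug of the series, since dG enters this pathway. Of 29 kept, 17 were higher in U937, 11 in KG1A and 1 was not called, with a median of 0.36. RRM2, the small subunit of ribonucleotide reductase, was at 323 and 315 CPM in KG1A and 548 and 561 CPM in U937 (0.80 on the log2 scale). RRM1, the large subunit, was at 251 and 259 CPM in KG1A and 327 CPM and 327.5 CPM in U937 (0.36 ± 0.03). SAMHD1, which breaks down deoxynucleotides, was low in both lines, at 5.85 and 5.17 CPM in KG1A and 7.72 and 9.53 CPM in U937. DCK, a kinase of deoxycytidine and of purine deoxynucleosides, was at 132 and 130.4 CPM in KG1A and 108.5 and 108.9 CPM in U937 (-0.27 ± 0.04), and DGUOK, the mitochondrial deoxyguanosine kinase, was at 39.5 and 42.8 CPM in KG1A and 51.8 and 55.4 CPM in U937 (0.37 ± 0.06). PNP, which splits dG, was at 102 and 109.9 CPM in KG1A and 71.3 and 73.5 CPM in U937 (-0.56 ± 0.05). Among nucleoside transporters, SLC29A1 was at 82.3 and 88.3 CPM in KG1A and 137 and 141 CPM in U937. SLC29A2 was at 42.8 and 43.2 CPM in KG1A and 0.816 and 0.837 CPM in U937, and SLC28A3 had 0 reads in KG1A and 17.6 and 18 CPM in U937. CDA, cytidine deaminase, had 0 reads in KG1A and 16.4 and 16.8 CPM in U937.

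Efflux and detoxification genes included the drug pump ABCB1 (P-glycoprotein, ENSG00000085563, chr7:87503633-87713323, minus strand). It was at 214 and 206 CPM in KG1A with 0 reads in U937, at least 3980-fold higher. ABCC1, another pump, was at 134 and 132 CPM in KG1A and 86.5 and 84.7 CPM in U937. Of 22 genes of this list kept, 13 were higher in U937 and 8 in KG1A. All 7 metallothionein genes, which bind metals, were higher in U937, a family chosen after its values were seen.

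Cell cycle and cell death genes differed by gene. Genes of G2/M and mitosis were higher in U937 for 24 of 30 and in KG1A for 6, with a median of 0.42 and none at 8-fold. MKI67, a proliferation marker, was at 1226 and 1140.3 CPM in KG1A and 1280.0 and 1204 CPM in U937 (0.07 ± 0.03). MYC was at 518 and 513 CPM in KG1A and 228 and 227 CPM in U937 (-1.18 on the log2 scale). CDKN2A, which encodes the inhibitors p16 and p14ARF, was at 1.43 and 1.64 CPM in KG1A and 54.9 and 57.4 CPM in U937 (5.17 on the log2 scale). BCL2, an inhibitor of apoptosis, was at 285 and 272 CPM in KG1A and 44.7 and 40.3 CPM in U937, while BCL2A1, its myeloid relative, was at 4.86 and 4.17 CPM in KG1A and 244 and 245 CPM in U937. MCL1, another relative, was not called, at 186 and 182 CPM in KG1A and 182 and 185 CPM in U937 (0.00 ± 0.04). Ribosomal protein genes were higher in U937 for 17 of 30 and in KG1A for 9, none at 8-fold.

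Genes altered in acute myeloid leukaemia split 13 higher in U937 and 18 higher in KG1A of 33. STAG2, a cohesin subunit, was at 22.2 and 21 CPM in KG1A and 594 and 576 CPM in U937 (4.76 ± 0.04). WT1 was at 47.6 and 49.4 CPM in KG1A and 2.32 and 2.43 CPM in U937. IDH2, a mitochondrial dehydrogenase, was at 48.6 and 45.3 CPM in KG1A and 265 and 278 CPM in U937. Of the genes fused in these lines, PICALM was at 329 and 326 CPM in KG1A and 120.0 and 122 CPM in U937, and MLLT10 was at 87.9 and 92.3 CPM in KG1A and 27.7 and 25.8 CPM in U937. DNA and histone methylation enzymes were higher in KG1A for 16 of 28 and in U937 for 9. DNMT3B, a DNA methyltransferase of early cells, was at 237 and 227 CPM in KG1A and 15.3 and 17.1 CPM in U937, while its relative DNMT3A was at 10.8 and 9.41 CPM in KG1A and 45.2 and 42.4 CPM in U937.

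Some neighbouring genes differed together. Scanning gene order for at least 3 kept genes in a row, each at 1 CPM or more in 1 line and under 0.1 CPM in the other, gave 44 runs with reads in KG1A (169 genes) and 29 with reads in U937 (100 genes). These are few of the 15244 genes kept, and whether the runs exceed the number expected from gene order was not tested. Some runs hold a gene with its antisense partner, such as TTLL10 and TTLL10-AS1, which may share reads. On chromosome 17, USP22, DHRS7B, TMEM11, NATD1, MAP2K3, C17orf51 and FLJ36000 held 2 counts in KG1A PBS and 14368 in U937 PBS (chr17:20999593-22413744). In the dG libraries the same genes held 1 count in KG1A and 10115 in U937. The granule genes PLPPR3, AZU1, PRTN3 and ELANE formed another run (chr19:812488-856247), with 0 counts in KG1A and 26862 in U937. On chromosome 7, a run of 4 genes with CROT, ABCB1 and RUNDC3B held 19959 counts in KG1A and 4 in U937, and ABCB1 and RUNDC3B overlap. On chromosome 14, IGHD, IGHM and neighbouring joining segments held 19213 counts in KG1A and 3 in U937. On chromosome X, TCEAL4, TCEAL3 and TCEAL1, transcription elongation factor-like genes, had 0 reads in U937 and 194 to 1251 counts in KG1A. Of the runs on chromosome 19 with reads in KG1A, 10 held zinc finger genes. Zinc finger (ZNF) genes were then counted as a family, chosen after their values were seen: 319 of 467 were higher in KG1A and 90 in U937, with a median log2 difference of -0.88. On chromosome 19, 200 of 239 were higher in KG1A and 14 in U937, with a median of -1.85.

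Chromosomes differed in the median of the genes at 1 CPM or more in all 4 libraries. Chromosome 11 had the lowest median, -0.81 in PBS and -0.87 in the dG libraries, and chromosome 14 followed with -0.57 and -0.62. Chromosome X had the highest, 0.53 and 0.41, then chromosome 20 with 0.43 and 0.36. Within 20 Mb windows the lowest was chromosome 11 from 100 to 120 Mb, where 91.0% of 89 genes were below 0 and the median was -1.22. The highest was chromosome 7 from 100 to 120 Mb, with a median of 0.87 over 87 genes.

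**Figure D5:**
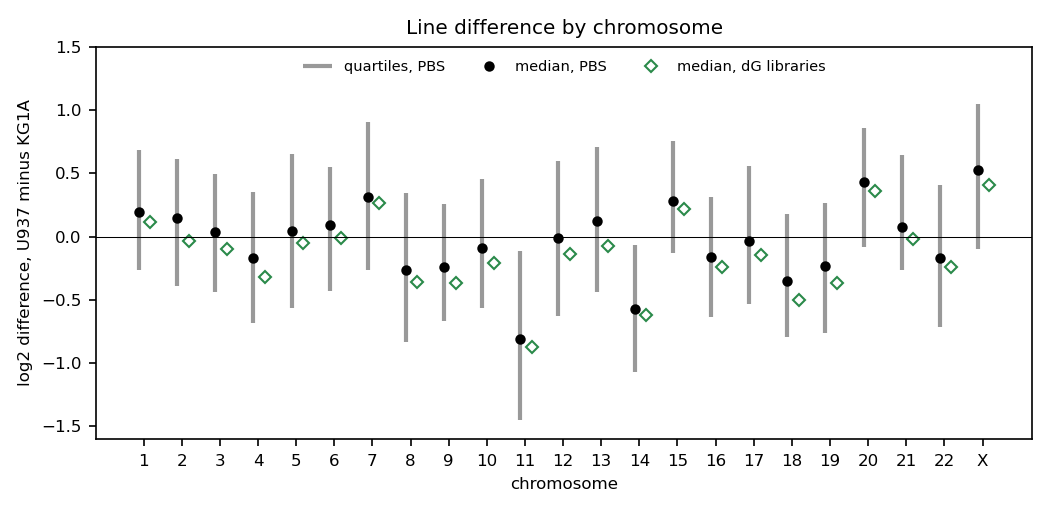
Median log2 difference (U937 minus KG1A) by chromosome for genes at 1 CPM or more in all 4 PBS libraries, with grey bars for the quartiles, filled circles for PBS and open diamonds for the dG libraries. Chromosomes 11 and 14 lie lowest and X and 20 highest in both sets.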

How the data were processed

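RNA from KG1A and U937 cells in PBS or 10 mM dG was sequenced, with 2 libraries per group, and groups were read from the sample titles. Libraries were made from total RNA with a Kapa mRNA kit, per the labels' protocols. Per the submitters' processing notes, bcl2fastq 2.18.0.12, TopHat2 and HTSeq 0.11.2 were used with GRCh38. The gene annotation version, whether counting used strand, and how multiply matching reads were assigned are not given in the sources used here. The authors deposited raw counts for 57992 genes and a table of RPKM. The deposited RPKM equalled counts per kilobase of exon and per library size scaled by TMM factors over all genes (recomputed from the counts).

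The level rule used CPM of the deposited totals. Library totals of all 8 libraries were 21053724 to 31135338 counts. Genes passing edgeR's default filter (18314) were fitted with edgeR 4.0.16 (R 4.3.3, TMM, quasi-likelihood test, common biological coefficient of variation 2.51%), with 1 mean per line and treatment in a single model, and p-values were adjusted by Benjamini-Hochberg over all 18314 genes. Every gene of the comparison was tested. The line difference in dG minus that in PBS was tested in the same model. Limma 3.58.1 on log2(RPKM + 1) or log2(RPKM + 0.1) and DESeq2 1.42.0 were alternatives, as were other filters and scalings, a member rule at 0.5 or 5 CPM, and fits without each library. Tests were checked on simulated counts. Gene types came from GENCODE 29 (57388 identifiers matched) and promoters from RefSeq.

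Genes were named by a rule of 6 parts: 12 per direction by largest difference among protein-coding genes at 20 CPM or more in the higher line and not overlapping between lines, 8 per direction by RPKM among those at least 8-fold apart, up to 4 per list and direction, 30 fixed genes, 6 of similar level by RPKM, and genes in runs. Some of these genes are not reported here. Other genes of the lists are named as examples chosen after their values were seen. The comparison, the 32 gene lists (810 symbols, 1 unmatched) and the rules were chosen with earlier results of these data known.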

Additional observations from a re-analysis of the deposited data

Results flagged for a closer look

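For 12 of the fixed genes reported here the line difference in 10 mM dG differed from that in PBS by edgeR's quasi-likelihood test of the difference itself (adjusted over 18314 genes, 44.1% of which were called). All values are log2 differences, U937 minus KG1A. The line difference was larger in dG for HLA-DRA (10.69 in PBS and 13.26 in dG, a change of 2.57, adjusted p = 0.0148), LYZ (7.89 and 13.19, a change of 5.30, adjusted p = 4e-04) and SAMHD1 (0.64 and 1.31, a change of 0.67, adjusted p = 0.00108). It was smaller in dG, in the same direction, for MEIS1 (14.95 and 10.84, a change of -4.11, adjusted p = 0.0408), SPI1 (7.79 and 6.63, a change of -1.16, adjusted p = 0.0338), CD33 (9.66 and 6.20, a change of -3.46, adjusted p = 4.88e-06), CDKN2A (5.17 and 3.69, a change of -1.48, adjusted p = 9.51e-09), MYB (0.85 and 0.37, a change of -0.48, adjusted p = 1.61e-11) and RRM2 (0.80 and 0.55, a change of -0.25, adjusted p = 1.01e-05). In KG1A, MEIS1 had 0 reads and CD33 3 reads in PBS, and LYZ had 5 reads in PBS and 1 in dG. HLA-DRA had 4 and 2 reads in the KG1A PBS libraries. The fitted values of these genes rest on few or no KG1A reads and depend on the prior count.

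For genes higher in KG1A, the difference shrank for HOXA9 (-0.80 and -0.15, a change of 0.65, adjusted p = 4.13e-13) and widened for MYC (-1.18 and -4.36, a change of -3.17, adjusted p = 4.65e-31) and PROM1 (-1.6 and -3.83, a change of -2.22, adjusted p = 0.00567).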

How the results depend on the processing

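The counts of genes higher in U937 and in KG1A (6581 and 6613 in PBS) stayed within 1.5 times under every alternative run; DESeq2's Wald test gave 5948 and 5991. Leaving out 1 library gave 6245 to 6496 and 6237 to 6444 in PBS, 5980 to 6622 and 6257 to 7111 in dG, and 6868 to 7435 genes (of 7735) for the change of the line difference. Counts at 8-fold moved on another scale: with limma on log2(RPKM + 1), filtered or not, 298 and 323 genes instead of 1495 and 1206 in PBS, and 445 and 385 instead of 1480 and 1329 in dG. That scale shrinks the differences of low genes by construction. A level rule of 5 CPM gave 974 and 819 at 8-fold with fewer genes kept. Replicate numbers did not pair the samples (correlations of deviations -0.0501 to 0.0134), and a replicate block gave 6564, 6603, 1495 and 1206 in PBS, 6130, 7227, 1479 and 1329 in dG, and 7673 for the change. Of the 509 named genes, 501 kept direction and call under every alternative and 0 reversed; 7 lost the call in at least 1 alternative (ZBTB46, HDAC11, CYBB, PROM1, MT-CO3, MT-CO1 and TPT1P9) and 1 gained it. TPT1P9 lost it without U937 PBS replicate 1 (adjusted p = 0.067) and MT-CO3 without either KG1A PBS replicate (0.0689 and 0.0556). Counts per list stayed within 1.5 times in 886 of 896 cases. At this depth, with 1 count worth 0.0321 to 0.0475 CPM, levels under the floor of 3 counts over a group were not measurable.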
